A study of Mus musculus with 2 samples.

Results

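A2m and 9 genes of the STAT3 acute-phase axis (Lcn2, Stat3, Socs3, Osmr, Il6st, Lifr, Bcl3, Cebpd and Cebpb) were followed through the cells of the mouse RPE layer, and all 10 of the 10 were found by symbol among the 32285 genes of the count tables. The retinal pigment epithelium (RPE) is the pigmented sheet under the retina. C57BL/6J mice of 3 months were injected under the retina with 1 µl, which held PBS alone in the control group and doxorubicin (Dox, a drug that damages DNA) at 100 ng/µl in the other, and the RPE, choroid and sclera were dissociated together 7 days later. Each condition gave 1 library of 10x Genomics 5′ single-cell RNA sequencing, pooled from 10 eyes of 5 mice, so that Dox, the injection, the pool of mice and the library cannot be told apart and no test between the conditions was possible. The injected drug reached only a part of the RPE, and the Dox library therefore mixed exposed and unexposed cells that carry no label. RPE cells were taken as cells with at least 10 UMIs of Rpe65, the visual cycle isomerase of the RPE. They were further divided at 1000 CPM of Serpina3n, an acute-phase serine protease inhibitor. A UMI is the tag of 1 captured RNA molecule, and CPM is the number of UMIs of a gene per 1000000 UMIs of the same group of cells.

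Acute-phase genes are those that tissues switch on after injury or inflammation. Cytokines of the IL-6 family bind a specific receptor chain (Osmr for oncostatin M, Lifr for leukaemia inhibitory factor) that pairs with the shared chain gp130, the product of Il6st. JAK kinases on these chains phosphorylate STAT3, which enters the nucleus and activates its targets, among them its own brake Socs3 and the C/EBP factors. A2m (alpha-2-macroglobulin) is a large secreted protein that traps proteases, and Lcn2 (lipocalin 2) is a secreted protein that binds bacterial iron carriers and is known from injured epithelia and from neutrophils.

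The control library held 20381 cells with 117731270 UMIs, of which 20180 cells passed the filters, and the Dox library 15649 cells with 103997248 UMIs, of which 15426 passed. The median depth was 4495 UMIs per kept cell in control and 4995 in Dox, and 16013.5 and 18115.5 in RPE cells. The libraries shared 441 cell barcodes, 3 of them among RPE cells. There were 1526 RPE cells in control and 1630 in Dox, of which 86.5% and 86.0% lay in the cluster led by RPE genes, and 9 of 10 RPE markers were above 10 CPM in them. As many RPE markers were above 10 CPM in every cell type outside the RPE-like cluster, where they summed to between 2826 and 29726 CPM against 102275 in control and 102894 CPM in Dox RPE cells. A low level of an RPE gene in another cell type therefore cannot be told apart from free RPE RNA. Serpina3n-high RPE cells were 15 of the 1526 in control (0.983%, Clopper-Pearson 95% interval 0.551 to 1.62) and 208 of the 1630 in Dox (12.8%, 11.2 to 14.5). Every interval in the text is at 95% and covers counting error only, and a gene is said to have risen or fallen only where its ratio of CPM passed 2-fold with at least 20 UMIs over both groups.

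Among all RPE cells, 2 of the 10 genes, A2m and Lcn2, rose in Dox and none fell. Of all 14215 genes tested, 0.992% were 2-fold higher and 3.31% were 2-fold lower. The median log2 ratio of the 10 genes was 0.06, against −0.02 for all genes. A2m went from 222 CPM (5851 UMIs) in control to 743 CPM (23190 UMIs) in Dox, which is a log2 ratio of 1.74 (1.70 to 1.78). Lcn2 went from 7 UMIs to 170 UMIs, which is a log2 ratio of 4.36 (3.28 to 5.69). The receptors, STAT3, its brake and the transcription factors all had ratios below 2-fold. Of 25 further acute-phase proteins, 8 were tested in this comparison. Serpina3n was 2-fold higher, Lrg1 and Hpx were 2-fold lower, and their median log2 ratio was −0.40.

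**Figure D1:**
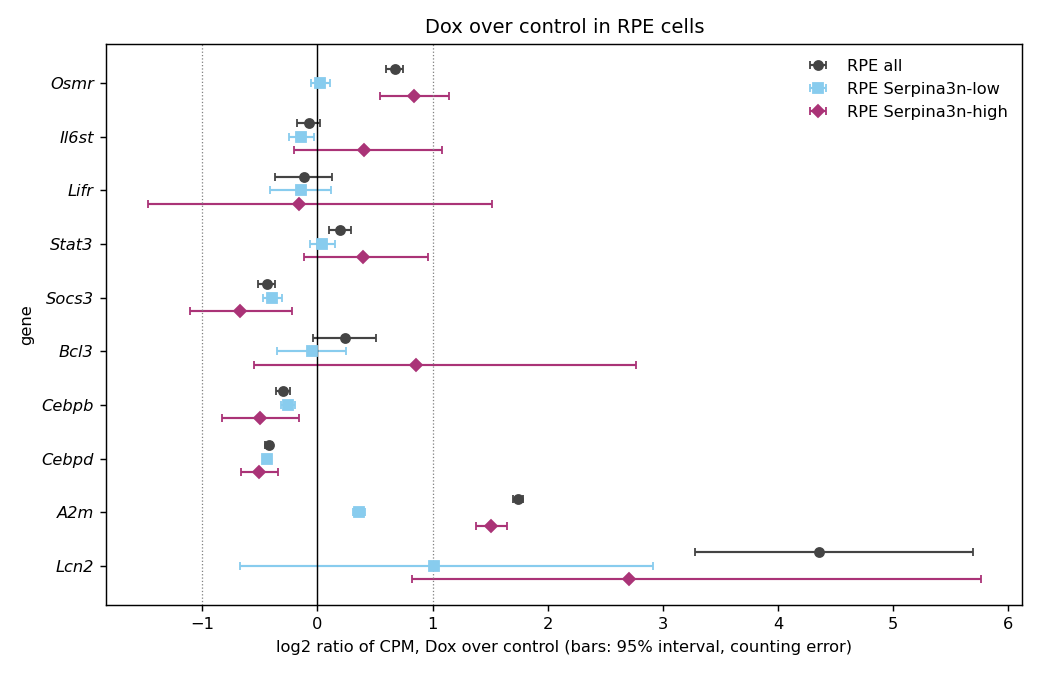
The log2 ratio of CPM, Dox over control, is shown for the 10 genes (rows) in all RPE cells and in the Serpina3n-low and Serpina3n-high ones (symbols), with bars for the 95% interval of counting error. A2m stands at 1.74 in all RPE cells, 1.51 in the Serpina3n-high and 0.36 in the Serpina3n-low ones, and Socs3, Cebpd and Cebpb lie below 0 in all 3 groups as drawn, although in Serpina3n-high cells each of them turned positive without the highest doublet scores.

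The division by Serpina3n showed where the A2m of the Dox library was. In Serpina3n-low cells, 0 of the 9 genes tested passed 2-fold (Lcn2 had too few UMIs), where 0.668% of all genes were 2-fold higher and 2.87% lower. In Serpina3n-high cells, 2 of 10 (A2m and Lcn2) were higher and none lower, where 12.1% of all genes were higher and 5.9% lower, a share that the 15 control cells make imprecise. A count of 2 among 10 genes is thus close to this background, and no more is read from it.

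Osmr, the oncostatin M receptor (ENSMUSG00000022146, chromosome 15 from 6813577 to 6874969 on the minus strand), was the receptor with the largest differences. Its level was 87.6 in control and 140 CPM in Dox RPE cells, which is a log2 ratio of 0.67 (0.60 to 0.75). In Serpina3n-low cells it was 85.3 CPM and 87.0 CPM, a ratio of 0.03 (−0.06 to 0.11). The Serpina3n-low cells of both libraries thus had close levels, and the higher Osmr of the Dox library lay in the Serpina3n-high cells, at 214 CPM in the 15 control cells and 382 CPM in the 208 Dox cells (0.83, 0.54 to 1.14). Within the Dox library, Osmr was higher in Serpina3n-high than in Serpina3n-low cells by 2.14 on the log2 scale (2.05 to 2.22), and within control by 1.33 (1.02 to 1.62). The control call was lost when the cells were thinned to equal depth (0.36) or given equal weight (0.97), and the Dox over control ratio passed 2-fold (1.52) with thinned cells. A UMI of Osmr was seen in 94.2% of Dox and 86.7% of control Serpina3n-high cells, against 64.6% and 63.5% of Serpina3n-low cells. After each cell was thinned to 2000 UMIs these shares were 50.2% and 20% against 18.0% and 17.6%, and they were 6.97% and 4.13% in T or NK-like cells, which should lack the gene (11.7% and 9.5% unthinned, at median depths of 3906 and 3725 UMIs).

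Il6st (ENSMUSG00000021756, chromosome 13 from 112464070 to 112510086, plus strand), which encodes the shared chain gp130, was at 59.6 in control and 56.5 CPM in Dox RPE cells (log2 ratio −0.07, −0.17 to 0.02). In Serpina3n-high cells it was 50.8 CPM and 67.2 CPM (0.40, −0.20 to 1.08). Lifr, the receptor of leukaemia inhibitory factor (ENSMUSG00000054263, chromosome 15 from 7090614 to 7197489, plus strand), was low, at 9.84 CPM and 9.07 CPM (−0.12, −0.37 to 0.13). Neither chain was distinguishable between the libraries beyond counting error over all RPE cells, and only Osmr of the receptors differed between the Serpina3n groups by more than 2-fold.

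Stat3 (ENSMUSG00000004040, chromosome 11 from 100885098 to 100939540, minus strand), the transducer itself, was at 54.6 in control and 62.5 CPM in Dox RPE cells, which is a log2 ratio of 0.20 (0.10 to 0.30). Its ratio was 0.04 in Serpina3n-low cells, and in Serpina3n-high cells it went from 70.7 CPM (32 UMIs) to 93.1 CPM (518 UMIs), a ratio of 0.40 (−0.12 to 0.96) that was −0.19 with the division at 2000 CPM. Within Dox, Stat3 was above its Serpina3n-low level by 0.74 (0.59 to 0.88) in Serpina3n-high cells, and within control by 0.38 (−0.17 to 0.89). The mRNA of Stat3 does not report its phosphorylation, which was not measured here.

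Socs3, the feedback inhibitor that STAT3 induces (ENSMUSG00000053113, chromosome 11 from 117966079 to 117970047, minus strand), did not follow A2m. It was at 112 in control and 82.8 CPM in Dox RPE cells, which is a log2 ratio of −0.44 (−0.52 to −0.37). In Serpina3n-high cells it was 110 CPM (50 UMIs) and 69.2 CPM (385 UMIs), a ratio of −0.67 (−1.10 to −0.22), and within Dox the Serpina3n-high cells were at −0.31 (−0.47 to −0.15) of the Serpina3n-low ones. In Serpina3n-high cells, however, the Dox over control ratio of Socs3 was 0.81 in thinned cells, and the ratio within Dox was 0.42 in cells that also lay in the RPE-like cluster. Over all RPE cells A2m and Socs3 had ratios of opposite sign, although the Socs3 difference stayed under 2-fold.

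The windows upstream of Socs3 and Lcn2 are shown because they alone among the members held a match to a motif of the axis. Windows of 250 bases before the start were available from RefSeq (GRCm38.p6) for 8 of the 10 genes (9 entries, with A2m and Cebpd named only), and were searched on both strands for the STAT motif TTCNNNGAA, found in 7.02% of the 32851 promoters of the table, for the C/EBP motif TTGCNNAA, found in 9.56%, and for the NF-kB consensus, found in 3.9%. The Socs3 window, at chr11:117969367-117969616 on the minus strand, lies within the GENCODE gene, which has a transcript model that starts further upstream. Its STAT match, in capitals, spans bases −154 to −146 from the RefSeq start. The Lcn2 sequence, at chr2:32387798-32387989 on the minus strand, runs from base −250 to base −59 of its window. Its C/EBP match, in capitals at −216 to −209, lies within the GENCODE gene and outside its untranslated regions. A match is a description of the letters and not of binding.
Socs3: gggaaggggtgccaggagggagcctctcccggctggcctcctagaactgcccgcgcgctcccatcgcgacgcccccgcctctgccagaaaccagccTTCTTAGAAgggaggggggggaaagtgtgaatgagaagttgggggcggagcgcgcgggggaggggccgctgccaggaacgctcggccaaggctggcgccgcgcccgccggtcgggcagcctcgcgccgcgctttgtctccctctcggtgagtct
Lcn2: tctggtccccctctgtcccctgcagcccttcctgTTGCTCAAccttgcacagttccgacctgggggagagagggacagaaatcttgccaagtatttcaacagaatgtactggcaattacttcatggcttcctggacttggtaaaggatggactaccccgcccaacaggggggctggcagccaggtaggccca

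The C/EBP factors, which act with STAT3 on acute-phase promoters, were lower in the Dox library without passing 2-fold. Cebpd (ENSMUSG00000071637, chromosome 16 from 15887286 to 15891031, plus strand) was at 702 in control and 525 CPM in Dox RPE cells (log2 ratio −0.42, −0.45 to −0.39). Cebpb (ENSMUSG00000056501, chromosome 2 from 167688915 to 167690418, plus strand) was at 187 CPM and 152 CPM (−0.30, −0.36 to −0.24). In Serpina3n-high cells the ratios were −0.51 (−0.66 to −0.34) for Cebpd and −0.50 (−0.83 to −0.16) for Cebpb, the latter at 0.13 in thinned cells and 0.73 with the division at 2000 CPM.

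Cebpd was spread unequally over the RPE cells. In Dox Serpina3n-low cells the median cell was at 82.7 CPM and the upper 10% of the cells held 69.7% of the Cebpd UMIs, whereas in Dox Serpina3n-high cells the median was 421 CPM and the upper 10% held 32.3%. The summed levels of these groups were nevertheless close, with a log2 ratio of 0.12 (0.06 to 0.18), Serpina3n-high over Serpina3n-low. Without the cells with the highest doublet scores this ratio was 1.13, and the Dox over control ratio in Serpina3n-high cells turned from −0.51 to 0.71 for Cebpd, from −0.67 to 0.59 for Socs3 and from −0.50 to 0.07 for Cebpb, with 11 of the 15 control cells left. The direction of Cebpd, Cebpb and Socs3 in Serpina3n-high cells therefore depended on which cells were kept.

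The fibroblast markers also summed to less in Dox than in control RPE cells, with a larger difference than these genes in Serpina3n-high cells. Fibroblast-like cells led by Myoc, the most abundant cell type, had Socs3 at 1440 CPM, Cebpd at 7531 CPM and Cebpb at 1822 CPM in control. The 12 fibroblast markers, all of which had UMIs in RPE cells of both libraries, summed to 1790 in control and 1106 CPM in Dox RPE cells, and to 1833 CPM and 427 CPM in Serpina3n-high ones, where Dpt was at 0. As a percent of the level in the Myoc-led cells of the same library, the median fibroblast marker was at 8.19 in control and 5.64 in Dox RPE cells, Socs3 at 7.81 and 5.91, Cebpd at 9.32 and 7.62, and Cebpb at 10.3 and 7.89. These 3 genes thus stood in RPE cells at about the percentage at which fibroblast markers did. In Dox Serpina3n-high cells the fibroblast markers lay between 0 and 4.57 percent, while Socs3 was at 4.94, Cebpb at 6.80 and Cebpd at 8.16. The part of fibroblast RNA in the lower Socs3, Cebpd and Cebpb of Dox was not tested. A2m was at 662 percent in control and 895 percent in Dox of its fibroblast level, and Osmr at 172 and 257 percent. The highest of the fibroblast markers, Dpt, was at 66.8 and 179 percent, with only 0.228 and 0.481 CPM in RPE cells. The next highest, Col3a1, was at 9.61 and 6.63 percent.

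**Figure D2:**
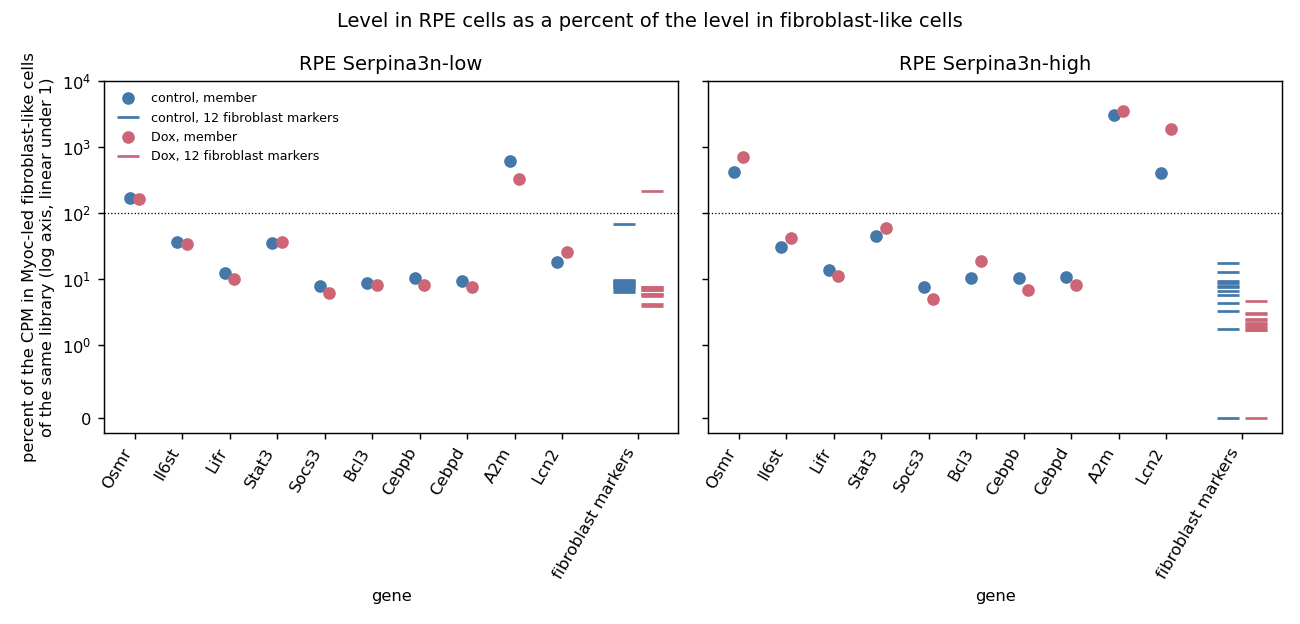
Each gene's CPM in RPE cells is drawn as a percent of its CPM in Myoc-led fibroblast-like cells of the same library (log axis, linear under 1), beside the fibroblast markers, with the dotted line at 100 percent. In Serpina3n-low cells Socs3, Cebpd and Cebpb sit near most fibroblast markers, with Socs3 at 7.81 percent in control against a marker median of 8.23. In Dox Serpina3n-high cells they are at 4.94, 8.16 and 6.80 percent, above the highest fibroblast marker at 4.57. A2m and Osmr lie above 100 percent in both groups.

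Bcl3 (ENSMUSG00000053175, chromosome 7 from 19808462 to 19822770, minus strand), an IkB-like partner of NF-kB that the acute-phase response induces, was low in RPE cells, at 7.37 in control and 8.69 CPM in Dox (log2 ratio 0.24, −0.03 to 0.51). It had 4 UMIs in the control and 89 UMIs in the Dox Serpina3n-high cells, at 8.83 CPM and 16 CPM (0.86, −0.55 to 2.76). Within Dox, the Serpina3n-high cells exceeded the Serpina3n-low ones by 1.17 (0.79 to 1.54), a ratio that was 0.95 in thinned cells and 0.57 when each cell had equal weight.

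A2m (ENSMUSG00000030111, chromosome 6 from 121635376 to 121679227, plus strand) had, of the 10 genes, the largest share of its UMIs in RPE cells. RPE cells were 7.56% of the kept control cells and held 63.5% of the control library's A2m UMIs. In Dox they were 10.6% of the cells and held 73.8%. RPE cells were also deeper, at a median of 16013.5 UMIs in control and 18115.5 in Dox, against 4495 and 4995 in all kept cells. Their share of A2m UMIs thus exceeds their share of cells partly through depth, and the RPE share of all UMIs is not given here. The Serpina3n-high cells, 208 cells, held 51.9% of all A2m of the Dox library, against 5.06% in the 15 control cells. In Serpina3n-low cells A2m was 208 in control and 268 CPM in Dox, which is a log2 ratio of 0.36 (0.31 to 0.42) that did not pass 2-fold. In Serpina3n-high cells it rose from 1029 CPM (466 UMIs) to 2931 CPM (16316 UMIs), a ratio of 1.51 (1.38 to 1.65). Most of the A2m that the Dox library had beyond the control level thus lay in 12.8% of its RPE cells.

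The 15 control cells set a soft base for that ratio. A single control cell held 217 of their 466 A2m UMIs (46.6%), the next cell 49, and without it the Serpina3n-high ratio was 2.31. With the division at 2000 CPM, which left 8 control cells, the ratio was 0.81 and no longer past 2-fold. By cell, the median A2m level was 451 CPM in control Serpina3n-high cells (10th percentile 122, 90th 1551, highest 6736) and 2100 CPM in Dox ones (705, 5830 and 14758). The upper part of the control cells overlapped the lower part of the Dox cells. Serpina3n-low cells had medians of 148 in control and 186 CPM in Dox.

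A2m and Serpina3n were high together more often than apart in Dox. Among Dox RPE cells, 171 had both genes at or above 1000 CPM, 86 had A2m alone, 37 had Serpina3n alone and 1336 had neither. In control the numbers were 4, 32, 11 and 1479. A2m reached 1000 CPM in 82.2% of Dox Serpina3n-high cells and in 6.05% of Serpina3n-low ones, against 26.7% and 2.12% in control. Osmr followed A2m in these classes, at 413 CPM in Dox cells with both genes high, 324 CPM with A2m alone, 218 CPM with Serpina3n alone and 77.0 CPM with neither. The control classes stood in the same order for Osmr, at 400, 313, 145 and 81.8 CPM, although the class with both had 4 cells and the class with Serpina3n alone 11.

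**Figure D3:**
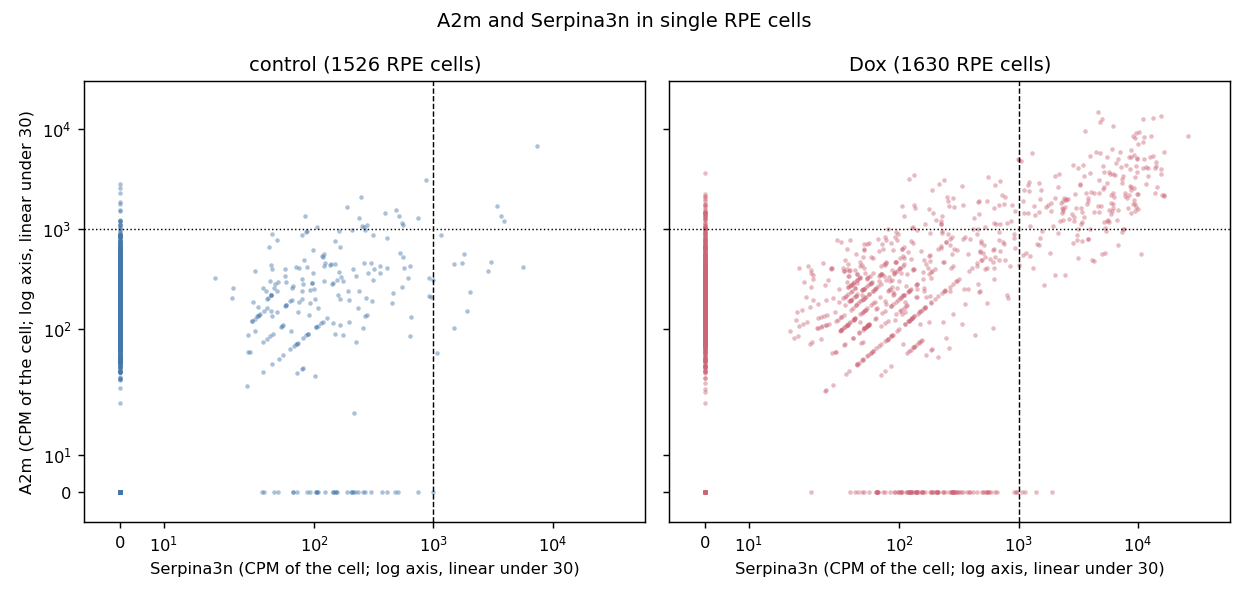
Each point is 1 RPE cell of the control (left) or the Dox library (right), with Serpina3n on the x axis and A2m on the y axis in CPM of the cell (log axes, linear under 30) and lines at 1000 CPM. The upper right field holds 4 control cells and 171 Dox cells, and 86 Dox cells lie above the A2m line with Serpina3n below its line.

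A2m rose with the Serpina3n level of the cell beyond the division at 1000 CPM. In Dox RPE cells it was 215 CPM where no Serpina3n was seen (780 cells), 265 CPM up to 300 CPM of Serpina3n (539 cells), 816 CPM from 300 to 1000 CPM (103 cells), 1742 CPM from 1000 to 3000 CPM (64 cells) and 3333 CPM above that (144 cells). The cells of the middle bin, from 300 to 1000 CPM, were shallower, with a median of 5999 UMIs. Control cells were at 189, 263 and 490 CPM in the lower 3 bins, and at 366 and 2179 CPM in the upper bins, which held 9 and 6 cells. Osmr in Dox went from 72.5 and 84.6 CPM in the lower bins to 246, 325 and 401 CPM, and Bcl3 from 6.8 and 7.0 to 10.8, 12.1 and 17.3 CPM. Stat3 in Dox was 51.9, 55.7, 95.8, 86.9 and 95.2 CPM and did not climb past the middle bin. Near the division, A2m was 926 CPM in the 57 Dox cells with 500 to 1000 CPM of Serpina3n and 1711 CPM in the 37 cells with 1000 to 2000 CPM, against 436 CPM (20 cells) and 370 CPM (7 cells) in control.

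**Figure D4:**
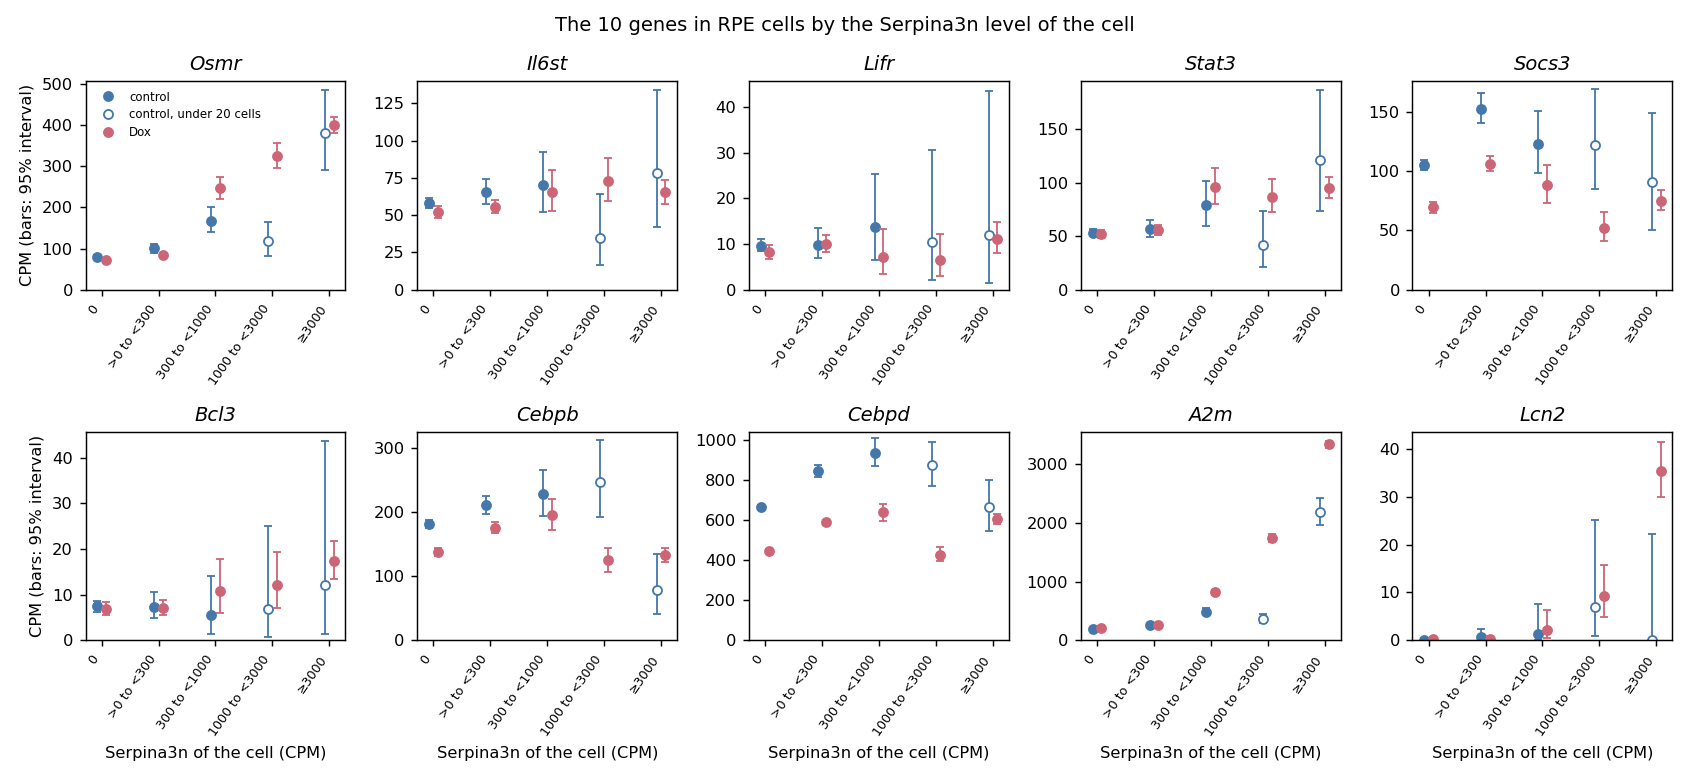
Each panel gives 1 gene's CPM with its 95% interval (y axis, from 0) in RPE cells binned by their Serpina3n CPM (x axis), for control and Dox, and bins under 20 cells are marked. A2m climbs in Dox from 215 CPM without Serpina3n to 3333 CPM at 3000 CPM and above, and Osmr from 72.5 to 401 CPM.

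Lcn2 (ENSMUSG00000026822, chromosome 2 from 32384633 to 32388252, minus strand) rose in fewer cells than A2m. Of the 170 UMIs in Dox RPE cells, 160 were in Serpina3n-high cells, in 22 of the 208 (10.6%, 6.75 to 15.6), and 5 cells held 120 of them. In control, 7 UMIs were spread over 6 RPE cells, 2 of them in 1 Serpina3n-high cell. The ratio in Serpina3n-high cells, from 2 UMIs to 160, was 2.70 on the log2 scale (0.83 to 5.76). Within Dox, Serpina3n-high cells exceeded Serpina3n-low ones, which had 10 UMIs, by 6.20 (5.29 to 7.29). The Lcn2 of the Dox library was therefore carried by few cells, with up to 33 UMIs in a cell.

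Cells with and without Lcn2 had close levels of A2m. The 22 Dox Serpina3n-high cells with Lcn2 had A2m at 2957 CPM and Osmr at 375 CPM, and the 186 without it had 2927 CPM and 383 CPM. Serpina3n was at 7826 CPM with Lcn2 and 6123 CPM without, and their median depth was 34000.5 and 27541 UMIs. Cebpd was higher with Lcn2, at 752 CPM (690 to 818) against 533 CPM (513 to 554). Bcl3 was at 27.7 CPM (16.9 to 42.8) with Lcn2 and 14.2 CPM (11.1 to 18.0) without. The intervals of Stat3, Socs3, Il6st, Lifr and Cebpb overlapped. The 5 neutrophil markers, S100a8 among them, had no UMI in Serpina3n-high cells of either library, which allows up to 0.539 CPM for each in Dox and 6.63 CPM in control (3 UMIs). Dcn, a fibroblast gene, was at 328 CPM with Lcn2 and 140 CPM without, and its part was not tested. The Lcn2 ratio depended on the limits on genes and complexity per cell, which were lifted together. Of 34 control RPE cells outside these limits, 5 were Serpina3n-high and held 50 Lcn2 UMIs, 47 of them in 1 cell, and with neither limit the ratio in Serpina3n-high cells became −1.41 (182 UMIs in Dox against 52 in control) and that in all RPE cells 1.38.

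Serpina3n-high cells differed from the others by more than these genes. They were deeper, with a median of 33954 UMIs in control and 28244 in Dox against 15957 and 16608 in Serpina3n-low cells. Their median doublet scores were 0.312 and 0.141 against 0.127 and 0.0939. They also had less Rpe65, with 2544 (control) and 1954 CPM (Dox) against 5008 and 5499 CPM in the Serpina3n-low ones. RPE cells were chosen by a minimum of Rpe65 UMIs, so a cell with a lower Rpe65 level had to be deeper to be counted. The difference in depth can therefore be partly set by that rule, which was not tested. Melanocyte markers summed to 6204 CPM and 3775 CPM in Serpina3n-high cells, against 3205 CPM and 2346 CPM in all RPE cells. Gpnmb, which macrophages express too, held much of this, since the Serpina3n-high cells had 2262 (control) and 1895 CPM (Dox) of it and the Serpina3n-low ones 338 and 241 CPM. The other melanocyte markers went both ways in Dox, with Dct at 911 CPM against 1060 CPM and Pmel at 44.9 CPM against 67.8 CPM, but Mlana at 312 CPM against 138 CPM. In control, Dct, Pmel and Mlana were at 2204, 347 and 532 CPM against 1558, 297 and 299 CPM. Tyr, Tyrp1 and Mitf were higher in control Serpina3n-high cells too, at 327, 298 and 144 CPM against 194, 240 and 103 CPM. Kit, Sox10 and Ednrb were lower in control, with 1, 21 and 19 UMIs in the Serpina3n-high cells and intervals that held 0. Macrophage markers summed to 144 CPM and 109 CPM, against 380 CPM and 182 CPM. Their part in the results was not tested. The median mitochondrial share was 2.05% and 2.15% in Serpina3n-high against 2.46% and 2.55% in Serpina3n-low cells.

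Within each library, the comparison of Serpina3n-high with Serpina3n-low cells called 2 of 9 genes tested higher in control (A2m by 2.31, 2.17 to 2.44, and Osmr), where 6.01% of all genes were 2-fold higher and 24.4% lower. In Dox it called 4 of 10 higher (Lcn2, A2m by 3.45, 3.41 to 3.49, Osmr and Bcl3), where 2.64% of all genes were higher and 11.4% lower. None of the 10 was 2-fold lower in either library. The median of the members was 0.19 in control and 0.52 in Dox, against −0.22 and −0.20 for all genes. The medians below 0 mean that, relative to the median gene, each ratio is higher by that shift. Of the 13123 genes tested in control, however, 1863 had UMIs in 1 group alone, against 75 of 13111 in Dox. The control median and shares are therefore partly set by small counts, and the shift need not hold for genes with many UMIs. The cells were divided by an acute-phase gene, so these counts describe what else such cells carry.

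The same genes outside the RPE showed A2m as the exception. In control, A2m was between 5.04 CPM (Schwann-like cells, 1 UMI) and 80.0 CPM (an unnamed cluster led by Snhg7os) in the other cell types, against 222 CPM in RPE cells. In Dox it was between 47.2 CPM and 440 CPM there, highest in melanocyte-like cells, which had been at 55.2 CPM. The melanocyte-like cluster was the shallowest, with a median of 1320 UMIs per cell in control and 785 in Dox, its RPE cells included. Each of the cell types outside the RPE with at least 20 UMIs was higher in Dox, with log2 ratios from 1.16 to 3.00. This range holds the 1.74 of RPE cells, and Schwann-like cells went from 1 UMI to 11. T or NK-like cells, taken as cells that should lack A2m, went from 27.7 CPM to 82.2 CPM, and their share of cells with an A2m UMI from 11.4% to 28.2% at median depths of 3725 and 3906 UMIs, against 79.0% and 87.6% of RPE cells. With cells thinned to 2000 UMIs the shares were 4.85% and 18.0% in T or NK-like and 29.2% and 44.6% in RPE cells, leaving out 51 and 29 shallower T or NK-like and 32 and 41 RPE cells. Per 100 UMIs of Rpe65 in the same group, A2m outside the RPE was between 1.43 and 23.0 in control and between 18.3 and 40.7 in Dox. In RPE cells it was 4.48 and 15.3. RPE cells were chosen by their Rpe65 UMIs, so the lower ratio in them is partly set by that rule. The part of free RNA in the A2m of the other cell types was not tested.

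**Figure D5:**
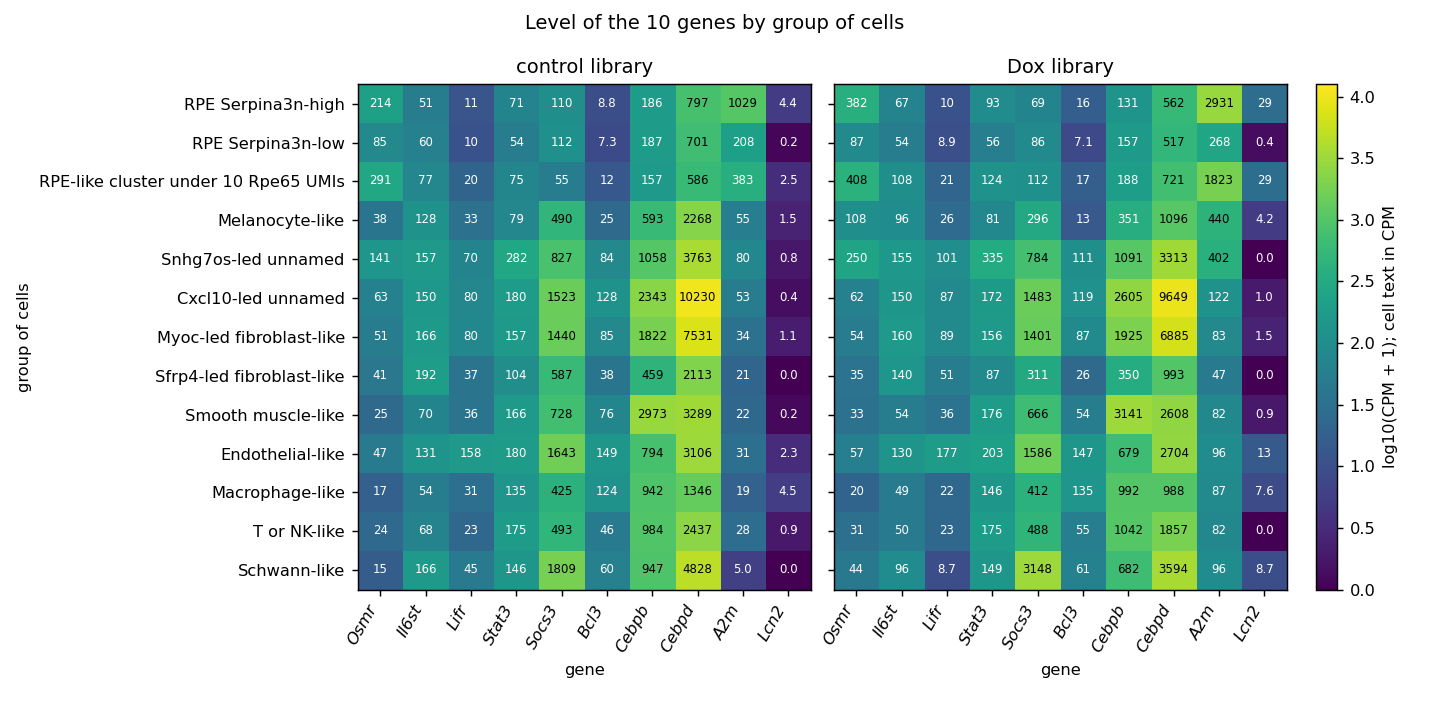
The level of each of the 10 genes (columns) is shown in each group of cells (rows) of the control and the Dox library, as CPM on the colour scale. A2m stands at 1029 in control and 2931 CPM in Dox Serpina3n-high RPE cells, and at 208 and 268 CPM in Serpina3n-low ones. The Serpina3n-low level in Dox is below melanocyte-like (440 CPM) and Snhg7os-led cells (402 CPM). Osmr is at 214 and 382 CPM in Serpina3n-high RPE cells, above the Snhg7os-led cluster (141 and 250 CPM). In Serpina3n-low ones it is below that cluster, at 85.3 and 87.0 CPM. Socs3, Cebpb, Cebpd, Bcl3 and Lifr are lowest or near lowest in both RPE groups.

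The receptors and factors were ordered differently. Stat3 was lowest in RPE cells of both libraries, and its next neighbour in control, the cells of the RPE-like cluster with fewer than 10 Rpe65 UMIs, was at 74.5 CPM. Bcl3 was lowest there too, at 7.37 CPM against 149 CPM in endothelial-like cells of the control library. Lifr was at 9.84 CPM in control RPE cells and 158 CPM in endothelial-like cells, where it was highest in both libraries. Socs3 was highest in Schwann-like cells, at 1809 in control and 3148 CPM in Dox, and Cebpb in smooth muscle-like cells, at 2973 CPM and 3141 CPM. Il6st was 54.3 CPM in macrophage-like and 192 CPM in Sfrp4-led fibroblast-like cells of the control library, and most neighbours in that order overlapped in their intervals. Osmr was an exception among the signalling genes. Of the named cell types it was highest in RPE cells, at 87.6 CPM in control, above the 63.3 CPM of the Cxcl10-led and the 50.8 CPM of the Myoc-led cells. In Dox it was 108 CPM in melanocyte-like cells, from 37.9 CPM in control (log2 ratio 1.51, 1.26 to 1.76), next below the 140 CPM of RPE cells. In the same melanocyte-like cells Rpe65 went from 521 to 1419 CPM (1.44, 1.38 to 1.51) and the summed RPE markers from 9968 to 29726 CPM. The part of free RPE RNA in their Osmr was not tested. The Snhg7os-led cluster, which has no cell type name, had more Osmr than RPE and melanocyte-like cells, at 141 in control and 250 CPM in Dox. Lcn2 reached at most 13.3 CPM in the named types, in endothelial-like cells of Dox (12 UMIs).

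Over the 26 groups of cells in both libraries, the genes whose log2 level was most like that of A2m were Gnb3 (Pearson r 0.94), Gsta3 (0.93), Lalba (0.93), Chrnb4 (0.91) and Cox8b (0.90), out of 6981 genes compared. Osmr was close to them at 0.89 and Serpina3n at 0.81, whereas Socs3 was at −0.67 and Stat3 at −0.33. For Lcn2 the closest were Aen (0.68), Npl (0.65), Timm10b (0.63), Glb1 (0.63) and Ctsa (0.63). Lcn2 had few UMIs in most groups and none in some, such as T or NK-like cells of Dox. Its level of 8.74 CPM in Schwann-like cells of Dox came from 1 UMI. The values for Lcn2 thus rest partly on single UMIs. The RPE cells entered as their Serpina3n-low and Serpina3n-high groups. The value of Serpina3n, and of any gene that goes with it, is therefore partly set by that division. The groups come from the same 2 libraries, so that these values describe the groups and carry no p.

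The rest of the pathway was read from lists of its parts, in Serpina3n-high cells, Dox over control. In this comparison 12.1% of all genes were 2-fold higher and 5.9% lower, and with so few genes a list the counts are given as descriptions, from which nothing is read about a list. Of 9 ligands of the IL-6 family, 2 were tested and neither passed 2-fold, and Cntf, the ciliary neurotrophic factor, was at 135 CPM and 97.7 CPM (log2 ratio −0.46, −0.85 to −0.06). Of 8 further receptors and JAK kinases, 4 were tested and only Jak2 was past 2-fold, from 1 UMI to 34. In CPM this was 2.21 and 6.11, against 8.24 and 8.54 CPM in Serpina3n-low cells of control and Dox. Of 13 brakes, 12 were tested, with Socs5 higher (1 UMI to 31) and Socs1 lower (11 UMIs to 50, −1.44, −2.40 to −0.34). The phosphatases Ptpn11 and Ptpn2 had ratios of 0.66 and 0.33. The genes of these lists that passed 2-fold all had 11 UMIs or fewer in the control cells. UMI counts given without CPM, here and below, come from 15 control and 208 Dox cells and are not levels.

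Among the other STATs, Stat2, which acts in the interferon response, rose from 6 UMIs to 198. Of 25 further acute-phase proteins only 4 could be tested. Serpina3n, which divided the cells, and complement C3 (0 UMIs to 30) were higher, and the genes left untested, the serum amyloids and haptoglobin among them, had too few UMIs. Of 18 genes known as STAT3 targets, 14 were tested and 2 rose, a share close to the 12.1% of all genes. They were Cdkn1a, the cell cycle inhibitor p21 and also a p53 target, from 48.6 CPM to 318 CPM (2.71, 2.11 to 3.39) and Ccnd1, cyclin D1, from 81.7 CPM to 216 CPM (1.40, 0.93 to 1.91). The control level of Ccnd1 rests on 37 UMIs. Both of its levels were below those of the Serpina3n-low cells (282 CPM for control, 294 CPM for Dox). Vegfa was at 0.68, and Vim, Junb and Hif1a at −0.72, −0.69 and −0.33. Within each library, however, Serpina3n-high cells had at least 2-fold more Vim and at least 2-fold less Vegfa than Serpina3n-low ones. Of 11 C/EBP and NF-kB partners, 10 were tested, with Rel (0 UMIs to 22) and Cebpg (3 UMIs to 103) higher and Nfkbia at −0.29. Of 6 relatives of A2m, only its receptor Lrp1 could be tested, at 214 CPM and 199 CPM (−0.11, −0.41 to 0.21). The median of the STAT3 targets tested was −0.09, against 0.02 for all genes.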

How the data were processed

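The values deposited by the authors are raw counts of UMIs per gene and cell, made with Cell Ranger on mm10 (4.0.0 in the file header, though the study names 2 versions) and not normalized. After the study's methods, a cell was kept if it had more than 500 UMIs, between 200 and 6000 genes, a ratio of log10 genes to log10 UMIs of more than 0.8 and a mitochondrial share of less than 0.2. Clustering used R 4.3.3 with Seurat 5.3.0, SeuratObject 5.2.0 and sctransform 0.4.2. SCTransform was run on each library, 2992 features served for the integration (3000 less the members and Serpina3n that were among them), and 40 principal components gave clusters at the resolution 0.1. A cluster took a name from its markers if 3 or more reached 10 CPM and 1 or more stood among its 10 leading genes. RPE cells (at least 10 Rpe65 UMIs, in any cluster) were left out of the other types, and the Serpina3n division was at 1000 CPM of the cell. UMIs were summed per group and library and given as CPM with exact Poisson intervals, ratios with exact conditional binomial intervals and shares with Clopper-Pearson intervals (95%, counting error only), in Python 3.11.15 with numpy 2.4.6, scipy 1.17.1 and pandas 2.3.3. A gene was tested at 20 UMIs over both groups and called at 2-fold, and no p-value was computed, since each condition had 1 library. Doublet scores came from Scrublet (scanpy 1.11.5, 0.8% expected per 1000 cells) and no doublet was removed in the values of the text. Per-cell shares were also computed after thinning cells to 2000 UMIs. Similarity to A2m and Lcn2 was computed on log2 of CPM plus 1, over genes reaching 50 CPM. Gene positions are from GENCODE vM21 (GRCm38, also called mm10) and promoter sequences from RefSeq (GRCm38.p6). The sources used here do not state whether the counting used strand or how reads shared by overlapping genes were treated. The steps from counts to intervals were tested on simulated data, with summed counts drawn from the Poisson model that the intervals assume. That check covers the computation only, and cannot show how the intervals hold where few cells carry most UMIs of a gene. Figures were drawn with matplotlib 3.10.9.

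The members and all lists were chosen with earlier results of these data known. The genes named were the 10 members and, from each pathway list, the 3 largest rises and falls with 50 CPM in a library and 20 UMIs. Genes named outside this rule, for small counts, were chosen after their values were seen. Images, staining and in situ data were not used here. Cpamd8, of the A2m relatives, was not analysed here, and results for 1 gene of the pathway lists are not reported here.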

Additional observations from a re-analysis of the deposited data

Results flagged for a closer look

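Cells that the comparisons of RPE cells did not use carried the same genes. The RPE-like cluster held 50 control and 54 Dox cells with fewer than 10 Rpe65 UMIs. In them A2m was at 1823 CPM in Dox and 383 CPM in control, Osmr at 408 and 291 CPM, Stat3 at 124 and 74.5 CPM, Socs3 at 112 and 54.7 CPM and Cebpd at 721 and 586 CPM. Lcn2 was at 29.0 CPM in Dox (14 UMIs) and 2.48 CPM in control (1 UMI). Per 100 UMIs of Rpe65, A2m was at 54.2 in control and 313 in Dox in these cells. They were chosen for having few Rpe65 UMIs, so a high ratio is partly set by that rule.

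RPE cells outside the limits on genes or complexity, 34 in control and 87 in Dox, had A2m at 311 in control and 514 CPM in Dox. The Serpina3n-high ones among them, 5 in control and 18 in Dox, had A2m at 645 and 1536 CPM and Cebpd at 316 and 550 CPM.

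Some groups had a Dox over control ratio of the opposite sign to all RPE cells, and these differences were not tested. Socs3, at −0.44 on the log2 scale in RPE cells, was at 1.03 in the RPE-like cells under 10 Rpe65 UMIs and at 0.80 in Schwann-like cells. Cebpd, at −0.42 in RPE cells, was at 0.30 in the RPE-like cells under 10 Rpe65 UMIs. Cebpb, at −0.30 in RPE cells, was at 0.15 in Cxcl10-led cells and at 0.08 in each of the macrophage-like (0.076), Myoc-led fibroblast-like (0.0796) and smooth muscle-like (0.0792) cells.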

How the results depend on the processing

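A2m kept a positive log2 ratio of Dox over control under all alternatives run, between 1.54 and 1.80 in all RPE cells, 0.81 and 2.31 in Serpina3n-high and 0.26 and 0.59 in Serpina3n-low cells. In all RPE cells the ratio was 1.65 with no limit on genes or complexity, 1.62 with at least 20 Rpe65 UMIs, 1.56 with Rpe65 also at 1000 CPM, 1.80 without the highest doublet scores, 1.54 as the mean of the cells' own CPM, 1.61 after thinning to 2000 UMIs and 1.79 without the control cell with most A2m, an alternative added after the data were seen. In Serpina3n-high cells it was 1.36 with at least 20 Rpe65 UMIs, 1.22 with Rpe65 at 1000 CPM, 1.84 and 0.81 with the division at 500 and 2000 CPM, 1.66 after thinning and 2.31 without that control cell. In Serpina3n-low cells it was 0.31 with at least 20 Rpe65 UMIs, 0.26 and 0.56 with the division at 500 and 2000 CPM, 0.54 as the mean of the cells' own CPM and 0.59 after thinning. The count of the 10 genes 2-fold higher in Serpina3n-high cells, 2 in the text, was 1 with no limit on genes or complexity and 0 with the division at 2000 CPM, where 8 control cells remained. The log2 ratio of Lcn2 there reversed to −1.41 with no limit on genes or complexity. Of 648 other ratios of the members, 583 kept their sign and 125 of 134 called ones stayed called. Called here means past 2-fold without the minimum of 20 UMIs. The 648 include alternatives that cannot change a ratio, such as another Serpina3n division for all RPE cells. These counts are thus partly set in advance. The background counts depended on the minimum number of UMIs. At 100 UMIs in place of 20, genes 2-fold higher in Dox were 39 in place of 141 in all RPE cells, 6 in place of 94 in Serpina3n-low and 294 in place of 1210 in Serpina3n-high cells, and lower ones 130 (471), 111 (404) and 107 (589). For Serpina3n-high over Serpina3n-low cells, higher genes were 309 (789) in control and 192 (346) in Dox, and lower ones 1666 (3199) and 680 (1499). With no minimum beyond 1 UMI, the higher counts were 1864, 1943 and 4903 for Dox over control in all, Serpina3n-low and Serpina3n-high cells, and 1287 within Dox, and the lower ones 2400, 2184, 1790, 8405 within control and 5084 within Dox. Each condition had 1 library, so leaving out a replicate or pairing replicates gave no value, and Bcl3, Lifr and Lcn2 were limited by few UMIs in the 15 control cells. No paired analysis was possible because each group has 1 sample.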

Other observations

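Osm and Il6, ligands of the IL-6 family, were highest outside the RPE. Osm, the ligand of Osmr, was highest in macrophage-like cells, at 96.6 in control and 84.4 CPM in Dox, and had 15 UMIs in control and 1 UMI in Dox RPE cells. Il6 was highest in the Cxcl10-led cells, at 121 CPM and 135 CPM, and was at 5.97 CPM and 3.75 CPM in RPE cells. Osm also had UMIs in the Myoc-led fibroblast-like cells, 74 in control and 11 in Dox, at 1.26 CPM and 0.227 CPM.

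Cntf was highest in Schwann-like cells, at 90.7 in control and 262 CPM in Dox, and was at 61.5 CPM and 69.5 CPM in RPE cells, where Ctf1, cardiotrophin 1, was at 45.9 CPM and 43.4 CPM. Il6ra, the specific chain of the IL-6 receptor, was at 81.8 CPM and 93.7 CPM in macrophage-like cells, and in RPE cells it had 24 UMIs in control and 7 UMIs in Dox. Jak1 was at 40.6 CPM and 34.9 CPM in RPE cells and at 346 CPM and 450 CPM in T or NK-like cells.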
